A study of Mus musculus with 6 samples.

Results

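Glycolysis and hypoxia response genes were examined as a set of 37 named genes, out of 55335 gene identifiers, in mouse cells labelled as microglia that had met neutrophils with or without the surface protein CD177. The set holds glucose and lactate transporters, the enzymes that take glucose to lactate, Hif1a itself and textbook target genes of the transcription factor HIF-1. All 37 were found in the table, and 33 of them averaged 1 FPKM or more across the 6 libraries and were tested. FPKM gives the fragments on a gene for each kilobase of its transcript and each 1e+06 fragments mapped, so levels can be set side by side between genes. The set was named with results of these data in view, but no value entered the rule that lists its members.

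The microglia of all 6 libraries were primary WT cells grown out of the brains of neonatal C57BL/6 mice and detached by shaking after 14 days of mixed glial culture. For 24 h they shared a culture with neutrophils drawn by magnetic beads from the spinal cord lesion of Cd177 WT or Cd177 KO mice 3 days after spinal cord injury (SCI), and were then sorted as Ly6G-negative cells. The comparison asked how these cells differed with the neutrophil genotype, with 3 libraries for WT and 3 for KO neutrophils. Their identity as microglia is in doubt, since most defining markers of microglia were at or near 0 in all 6 libraries while macrophage markers were abundant (values below), and "microglia" is used here as the labels' name. Below, WT group and KO group name the genotype of the neutrophils, never that of the microglia. How many mice or cultures each library drew on is not given in the sources used here, so p-values measure the spread between these libraries, which may be technical. Microglia without neutrophils were not analysed here, so no value below says how either group stood to resting cells.

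Cells obtain ATP and building blocks by splitting glucose to pyruvate in glycolysis, and reduce pyruvate to lactate when it is not burnt in mitochondria. When oxygen is ample, prolyl hydroxylases of the EGLN family mark HIF-1 alpha, the protein of Hif1a, for destruction through the VHL ligase. When oxygen is short, or when macrophages and microglia are activated by inflammatory signals, HIF-1 alpha accumulates and with its partner ARNT raises the transcription of glucose transporters and of most glycolytic enzymes. HIF-1 binds DNA at a short core, ACGTG or GCGTG, often close to the start of transcription.

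To show where these letters lie, stretches before the first annotated start site were taken from RefSeq (GRCm38.p6) for the 5 members with the largest called decreases, for Pfkm, which was called higher, and for Ldha, a classical HIF-1 target that was not called. Each runs from 10 bases before the first match to 10 bases after the last, 5′ to 3′ along the gene, with every ACGTG or GCGTG match on either strand in capitals. A CACGTG holds ACGTG on both strands and counts as 2 matches.
Slc2a1, chr4:119108674-119108723, plus strand: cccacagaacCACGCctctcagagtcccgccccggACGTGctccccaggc
Ero1l, chr14:45318621-45318710, minus strand, named Ero1a in RefSeq: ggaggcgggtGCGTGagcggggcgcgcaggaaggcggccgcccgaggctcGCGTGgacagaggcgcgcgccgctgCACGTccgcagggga
Egln3, chr12:54204089-54204113, minus strand: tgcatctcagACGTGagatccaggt
Bnip3, chr7:138909527-138909633, minus strand: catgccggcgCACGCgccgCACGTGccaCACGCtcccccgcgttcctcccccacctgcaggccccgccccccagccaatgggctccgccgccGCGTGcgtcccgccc
Pgk1, chrX:106186940-106186983, plus strand: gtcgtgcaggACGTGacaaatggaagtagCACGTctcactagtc
Pfkm, chr15:98092443-98092468, plus strand: ttaagtatgcCACGTGaagtaagtaa
Ldha, chr7:46845649-46845784, plus strand: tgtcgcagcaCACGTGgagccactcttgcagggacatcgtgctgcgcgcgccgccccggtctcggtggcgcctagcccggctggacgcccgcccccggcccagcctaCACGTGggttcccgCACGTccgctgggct
The Slc2a1 stretch ran from 71 to 22 bases before its start site, and its last 13 bases lay in an exon of the GENCODE M21 annotation, as did 8 bases of the Ero1l stretch. Bnip3 and Ldha each held 5 matches, Ero1l held 3, Slc2a1, Pgk1 and Pfkm held 2, and Egln3 held 1. A match is a run of letters and does not show that HIF-1 was bound there.

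In the KO group, 16 of the 33 genes tested fell (48.5%, against 18.8% of all genes tested) and 5 rose (15.2% against 24.5%). The other 12 did not pass the test. The largest decreases were those of Slc2a1, which encodes the glucose transporter GLUT1, Ero1l, an oxidase of the endoplasmic reticulum, and Egln3, an oxygen-sensing hydroxylase, with KO to WT ratios of means of 0.39, 0.413 and 0.397. Of the 8 genes for the lower part of glycolysis 5 also fell, led by Pgk1 at 0.676 of its WT neutrophil level and with the call of Pkm lost under several alternatives, whereas Ldha, which makes lactate, differed by -0.01 with a 95% interval from -0.06 to 0.03 on the log2 scale. Pfkm and Ankrd37 had the largest increases, with ratios of means of 1.84 and 1.58. As the libraries were bulk samples, fewer cells of one kind and less RNA in each cell cannot be told apart in any of these values.

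Over all 11395 genes tested with limma on log2(FPKM + 1), 43.3% were called at an adjusted p under 0.05, against 63.6% of the 33 members. The share called lower was 48.5% of the members and 18.8% of all genes, and the share called higher was 15.2% of the members and 24.5% of all genes. Set at a difference of -0.5 or below on the log2(FPKM + 1) scale, the calls comprised 5 members (15.2%) and 5.51% of all genes. At 0.5 or above they comprised 2 members (6.06%) and 5.05% of all genes. A further criterion was a difference over 1 in size on the log2(FPKM + 1) scale, or 2-fold in FPKM + 1, with an unadjusted p under 0.05. By it, 3 members (9.09%) were lower against 2.02% of all genes, and 0 members were higher against 0.553%. The added 1 damps the differences of low genes, so these cut-offs are harder to reach for them than for abundant genes. The values of the groups did not overlap for 24 of the 33 members (72.7%) and for 55.8% of all genes. The median difference of the 33 was -0.18, against 0.02 over all genes tested. With the libraries rescaled to a common sum (TPM scale), 20 members were called lower and 4 higher, and calls in the lower direction rose from 43.4% to 55.0% of all calls.

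**Figure D1:**
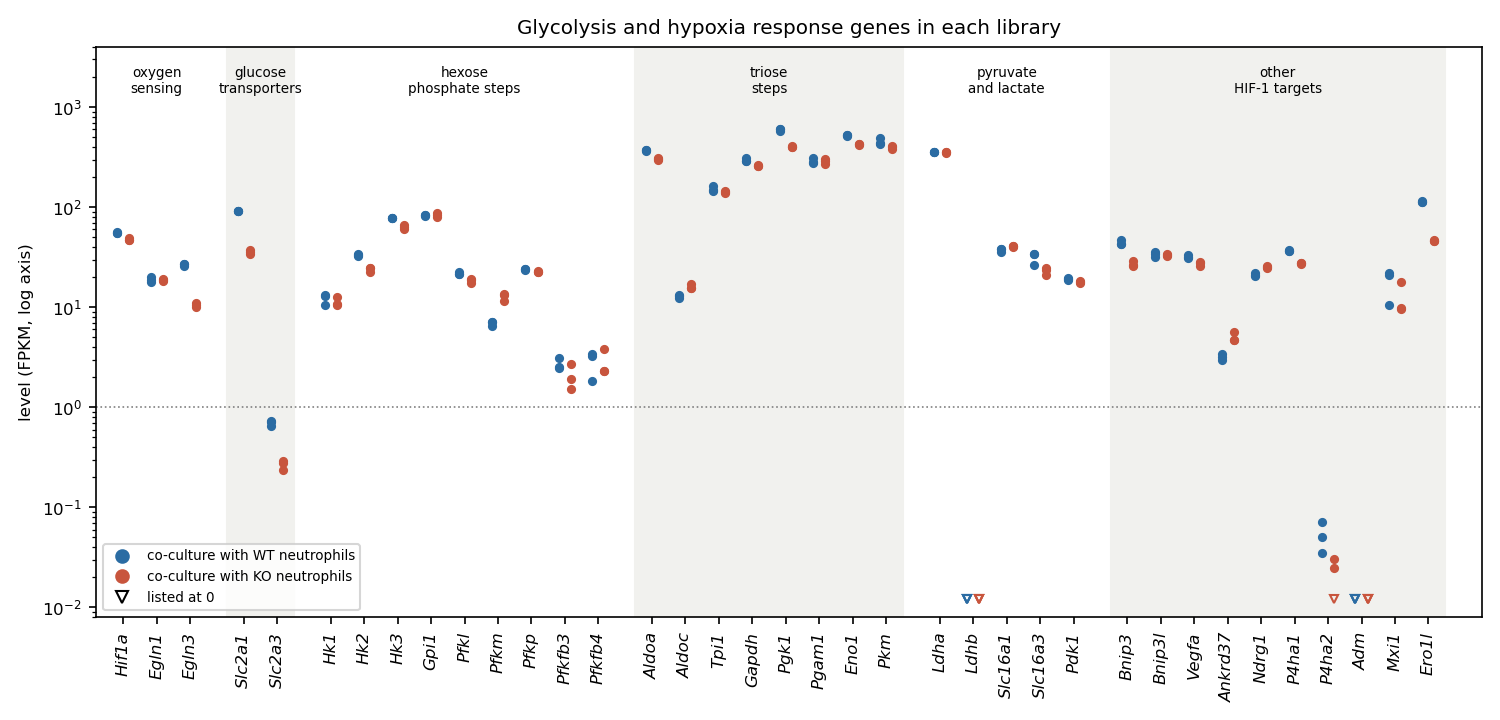
Level of each of the 37 genes in each of the 6 libraries in FPKM on a log axis, ordered by role, with blue points for WT and red points for KO neutrophils; the dotted line marks the filter at 1 FPKM and open triangles mark values listed at 0. Levels run from 0 for Ldhb and Adm to 606 FPKM for Pgk1, and the red points of Slc2a1, Ero1l and Egln3 lie clearly under the blue ones.

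Some facts of the libraries bear on every value. The deposited values give no depth, and the steps between low values pointed to a depth of about 15.7 to 19.5 in units of 1e+06 fragments a library. Transcripts of the mitochondrial genome took 11.1% to 11.32% of the summed FPKM in the WT group and 14.31% to 14.62% in the KO group. All 16 neutrophil markers had a mean under 1 FPKM, 7 of them were listed at 0 throughout, and their sum was 2.17 to 2.45 FPKM in the WT group and 1.03 to 1.52 FPKM in the KO group. All 11 astrocyte markers were under 1 FPKM, with 8 at 0. Of 16 microglia markers, Sall1, Fcrls and C1qa were listed at 0 in all libraries and 11 had a mean under 1 FPKM, P2ry12 and Tmem119 among them. Aif1, C1qb and C1qc did not exceed 0.282 FPKM in any library. The sum of these 16 ran from 307 to 311 FPKM in the WT group and from 380 to 417 FPKM in the KO group. The 12 macrophage markers were all above 1 FPKM and summed to 3597 to 3670 FPKM in the WT group and 3971 to 4044 FPKM in the KO group. They did not move one way, with 5 called higher, Ctsd (817 to 1121 FPKM) and Lgals3 (270 to 444 FPKM) adding most to the sum, and 2 called lower. These are 41.7% and 16.7% of the 12, against 24.5% and 18.8% of all genes tested. Cd14, a co-receptor for bacterial lipopolysaccharide, fell from 474 to 136 FPKM (difference -1.79, adjusted p = 4.09e-08) and Fcer1g, an Fc receptor subunit, from 191 to 157 FPKM (difference -0.28, adjusted p = 0.00152). The part of these shifts in the results below was not tested. Cd177 lay between 0.0217 and 0.477 FPKM, and since the deletion was in the neutrophils, not the sequenced cells, this is no check of the labels.

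Hif1a encodes the oxygen-regulated subunit of HIF-1, which is controlled mainly through the stability of its protein. Its level was 55.9, 55.9 and 57.0 FPKM in the WT group and 47.5, 47.4 and 49.7 FPKM in the KO group. All 3 KO values lay under all 3 WT values, and the difference was -0.22 (SE 0.027, adjusted p = 0.00107). An antisense transcript and the gene Gm49321 share exon bases with Hif1a, at means of 0.137 and 1.10 FPKM.

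Egln3 encodes PHD3, a hydroxylase that marks HIF-1 alpha and is itself induced by HIF-1. It stood at 26.1, 26.9 and 26.8 FPKM in the WT group and at 9.98, 11.1 and 10.6 FPKM in the KO group, so the lowest WT value was 26.1 and the highest KO value 11.1. The decrease was 1.26 on the log2 scale in size (difference -1.26, SE 0.043, adjusted p = 4.67e-06). Egln1, which encodes PHD2, the main oxygen sensor in most cells, had 18.8 ± 1.08 FPKM (SD, n = 3) in the WT group and 18.7 ± 0.566 FPKM in the KO group. Its difference had a 95% interval from -0.12 to 0.11. Egln3 thus went from above Egln1 to below it: the ratio of Egln3 to Egln1 was 1.31, 1.44 and 1.51 in the WT group and 0.516, 0.61 and 0.567 in the KO group.

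Slc2a1 was the only glucose transporter among the members to pass the filter. Its level was 91.6, 90.8 and 92.4 FPKM in the WT group and 36.0, 37.3 and 33.9 FPKM in the KO group. The WT mean was 2.57 times the KO mean, and the difference of -1.34 (SE 0.037, adjusted p = 1.91e-06) was the largest decrease of the set. Slc2a3, which encodes the high-affinity transporter GLUT3, was listed at 0.733, 0.714 and 0.651 FPKM in the WT group and 0.234, 0.276 and 0.291 FPKM in the KO group. Its groups did not overlap either, but it stayed under the filter. In the alternative that kept all genes in the fit it was called at -0.42 (SE 0.046, adjusted p = 0.00245). A count of 3 fragments would correspond to 0.031 FPKM on its longest and 0.607 FPKM on its shortest transcript, and such floors cover counting error only. The within-library ratio of Slc2a1 to Slc2a3 differed by -0.23 with a pseudocount of 0.1 and by 0.03 without one, so its direction hung on that choice.

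Hexokinases trap glucose in the cell as glucose 6-phosphate, and 3 of them were expressed. Hk2, the inducible form, had 33.3 ± 0.855 FPKM (SD, n = 3) in the WT group and 24.0 ± 1.08 FPKM in the KO group, a difference of -0.46 (adjusted p = 2.56e-04). Hk3, the form typical of myeloid cells, was the most abundant and fell from 77.8 ± 0.503 to 63.4 ± 3.04 FPKM, a difference of -0.29 (adjusted p = 0.00111). Hk1, the housekeeping form, was at 12.2 ± 1.48 and 11.4 ± 1.08 FPKM and was not called (difference -0.09, 95% interval -0.33 to 0.15). The sum of the 3 was 125, 120.2 and 125 FPKM in the WT group and 102, 98.5 and 96.0 FPKM in the KO group. Hk3 contributed 62.3% to 64.4% of that sum in the WT group and 63.1% to 65.5% in the KO group. Sums and shares of isozymes were chosen for display after the values had been seen, so they are a description and no p is given for them.

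Gpi1, which converts glucose 6-phosphate to fructose 6-phosphate, had 82.9 ± 1.74 and 83.7 ± 4.21 FPKM and a difference of 0.01 with an interval from -0.08 to 0.11. The next step is catalysed by phosphofructokinase, the main control point of the pathway, whose subunits are encoded by 3 genes. Pfkm, the muscle form, was at 7.19, 6.58 and 7.09 FPKM in the WT group and 13.5, 13.3 and 11.5 FPKM in the KO group. All KO values were above all WT values, and the difference of 0.79 (SE 0.067, adjusted p = 2.22e-04) was the largest increase of the set. Pfkl, the liver form, fell from 21.9 ± 0.559 to 18.5 ± 0.835 FPKM (difference -0.24, adjusted p = 0.00471). Pfkp, the platelet form, had 24.0 ± 0.291 and 22.7 ± 0.305 FPKM and missed the threshold (difference -0.08, adjusted p = 0.0508), which it passed under 4 alternatives (adjusted p from 0.00909 on the TPM scale to 0.0491 with array weights). Pfkp shares 748 exon bases with Pitrm1, on the opposite strand and at a mean of 68.1 FPKM, so without strand information its value is uncertain. The sum of the 3 phosphofructokinase genes was 52.9 ± 0.456 FPKM in the WT group and 53.9 ± 0.876 FPKM in the KO group, while the share of Pfkm in it went from 13.1% ± 0.693 to 23.7% ± 1.89 and that of Pfkl from 41.4% ± 0.849 to 34.2% ± 1.36. The groups did not overlap in either share.

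Pfkfb3 and Pfkfb4 make fructose 2,6-bisphosphate, which activates phosphofructokinase. Both were low and scattered. Pfkfb3 had 2.71 ± 0.363 and 2.07 ± 0.611 FPKM and a difference of -0.29 with an interval from -0.66 to 0.08, called only without KO replicate 1 (-0.44, adjusted p = 0.0332). Pfkfb4 had 2.84 ± 0.888 and 2.83 ± 0.903 FPKM, with an interval from -0.55 to 0.55.

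**Figure D2:**
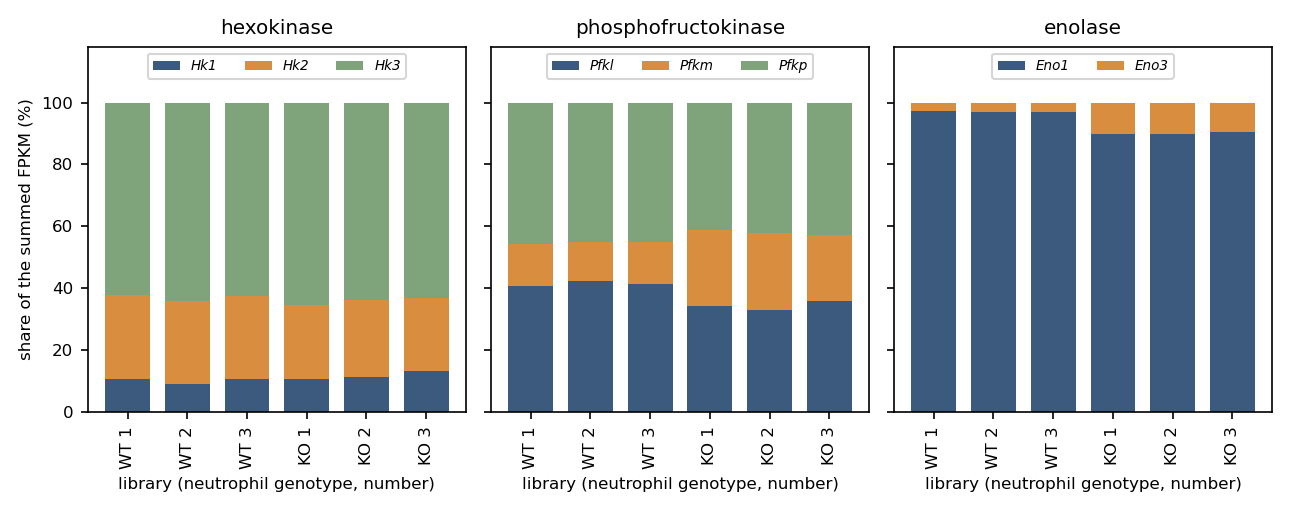
Share of each gene in the summed FPKM of its enzyme step, in percent, as stacked bars for each of the 6 libraries: Hk1, Hk2 and Hk3 for hexokinase, Pfkl, Pfkm and Pfkp for phosphofructokinase, and Eno1 and Eno3 for enolase, without the copies of Eno1. Pfkm takes 12.3% to 13.6% of the phosphofructokinase sum in the WT group and 21.5% to 24.9% in the KO group, and Eno3 takes 2.75% to 3.16% and 9.41% to 10.2% of the enolase sum.

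From fructose bisphosphate on, 8 members encode the steps to pyruvate, and 5 of them fell (62.5%, against 18.8% of all genes tested). Pgk1, whose enzyme forms the first ATP of the pathway, had 606, 601 and 582 FPKM in the WT group and 399, 402 and 407 FPKM in the KO group. These groups lay far apart relative to their spread, with a difference of -0.56 (SE 0.021, adjusted p = 6.03e-06). Aldoa, the main aldolase, fell from 372 ± 5.03 to 305 ± 5.36 FPKM (difference -0.29, adjusted p = 1.01e-04). Eno1, the main enolase, fell from 524 ± 3.18 to 429 ± 7.51 FPKM (difference -0.29, adjusted p = 5.94e-05). Pkm, which encodes the pyruvate kinase of these cells, had 450 ± 32.2 and 397 ± 13.6 FPKM and was called at -0.18 (adjusted p = 0.0363). That call was lost without WT replicate 3 (adjusted p = 0.0527), without any one KO replicate (adjusted p from 0.0528 to 0.104), when genes of low FPKM were kept in the fit (adjusted p = 0.0967) and with no variance trend (adjusted p = 0.0593). Pkm also shares 767 exon bases with Gm49759 on the same strand, at a mean of 15.4 FPKM. Gapdh, which oxidises glyceraldehyde 3-phosphate and often serves as a reference gene, was at 287, 307 and 292 FPKM in the WT group and 258, 264 and 258 FPKM in the KO group. Its groups did not overlap, with a difference of -0.18 (SE 0.029, adjusted p = 0.00317). Tpi1, the triose phosphate isomerase, had 153 ± 8.02 and 142 ± 3.77 FPKM and was not called (adjusted p = 0.101) except on the TPM scale (0.0313) and with quantile normalization (0.0397), nor was the mutase gene Pgam1, at 292 ± 20.2 and 289 ± 16.2 FPKM (interval -0.16 to 0.13). Aldoc, the brain aldolase, went the other way and rose from 12.8 ± 0.466 to 16.1 ± 0.82 FPKM (difference 0.31, adjusted p = 0.00278).

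Several of these genes have near-identical processed copies, among which reads may be split. Copies held 57.6% of the combined FPKM of Gapdh, 40.3% of that of Eno1, 36.9% of that of Pgam1 and 25.9% of that of Pgk1. With the copies added in, the log2 difference was -0.14 for Gapdh, -0.27 for Eno1, -0.02 for Pgam1 and -0.57 for Pgk1. The levels of these 4 genes are therefore uncertain, while Pgk1 and Eno1 differed by nearly as much with the copies as without.

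Ldha, which reduces pyruvate to lactate, was at 357 ± 2.85 FPKM (SD, n = 3) in the WT group and 353 ± 6.29 FPKM in the KO group. It was called only on the TPM scale, at -0.06 (adjusted p = 0.029). Ldhb, the lactate dehydrogenase of aerobic tissues, was listed at 0 in all 6 libraries. The lactate exporter gene Slc16a3, which encodes MCT4, had 31.5 ± 4.42 and 23.2 ± 2.08 FPKM and was called at -0.42 (adjusted p = 0.025). That call did not survive the loss of any single library other than WT replicate 2 or KO replicate 2 (adjusted p from 0.055 to 0.0747), nor a replicate block (adjusted p = 0.0588), nor the lack of a filter on low values (adjusted p = 0.0674). Slc16a1, which encodes MCT1, a carrier for lactate in either direction, was called at 0.14 (37.2 ± 1.55 and 41.0 ± 0.671 FPKM, adjusted p = 0.024), and lost the call on the TPM scale (adjusted p = 0.113), with the replicate block (adjusted p = 0.0573) and without KO replicate 2 or 3 (adjusted p = 0.0699 and 0.0711). Pdk1, a kinase that holds pyruvate out of the mitochondria, had 19.2 ± 0.559 and 17.9 ± 0.524 FPKM (difference -0.09, adjusted p = 0.0852), and was called only on the TPM scale (adjusted p = 0.0223).

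The other HIF-1 targets serve varied ends, and 4 fell, 2 rose, 2 were not called and 2 were too low to test. Ero1l, whose product forms disulfide bonds in secretory proteins, had 112, 114 and 112 FPKM in the WT group and 46.6, 46.4 and 46.4 FPKM in the KO group. Its KO values had an SD of 0.123 FPKM and lay far under the WT values, and the difference of -1.26 (SE 0.020) had the lowest adjusted p of the set, 1.94e-07. Bnip3, which encodes a receptor for the removal of mitochondria by autophagy, had 43.4, 47.0 and 43.3 FPKM in the WT group and 28.8, 26.2 and 26.2 FPKM in the KO group. Every KO value was under every WT value (difference -0.70, SE 0.051, adjusted p = 1.08e-04). Its relative Bnip3l had 34.0 ± 2.06 and 33.4 ± 0.63 FPKM and was not called (interval -0.13 to 0.09). P4ha1, a collagen prolyl hydroxylase subunit, fell from 36.7 ± 0.345 to 27.4 ± 0.249 FPKM (difference -0.41, adjusted p = 3.84e-05), and the angiogenic factor gene Vegfa from 32.1 ± 1.12 to 27.3 ± 1.5 FPKM (difference -0.23, adjusted p = 0.01).

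Ankrd37, an ankyrin repeat gene, rose from 3.43, 3.21 and 2.95 FPKM in the WT group to 5.72, 4.72 and 4.68 FPKM in the KO group (difference 0.52, SE 0.085, adjusted p = 0.00356). Its groups did not overlap, but it shares 57 exon bases with Ufsp2 on the opposite strand, at a mean of 13.2 FPKM. Ndrg1, a stress-responsive gene, rose from 21.3 ± 0.606 to 25.3 ± 0.39 FPKM (difference 0.24, adjusted p = 0.00145). Mxi1, an antagonist of MYC, was the most scattered member: 10.6, 22.1 and 20.9 FPKM in the WT group and 17.8, 9.51 and 9.75 FPKM in the KO group. In each group 1 library stood apart towards the other group, and the interval ran from -1.30 to 0.32. P4ha2 was listed at 0.0707, 0.0509 and 0.0352 FPKM in the WT group and at 0.0302, 0 and 0.0249 FPKM in the KO group, near or under the 0.063 FPKM that 3 fragments would give on its longest transcript and under the 0.722 FPKM on its shortest. Adm, which encodes the vasodilator adrenomedullin, was listed at 0 in every library, where 3 fragments would give up to 0.138 FPKM on its longest and 0.509 FPKM on its shortest transcript, and the same floors for Ldhb were 0.147 and 0.438 FPKM.

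**Figure D3:**
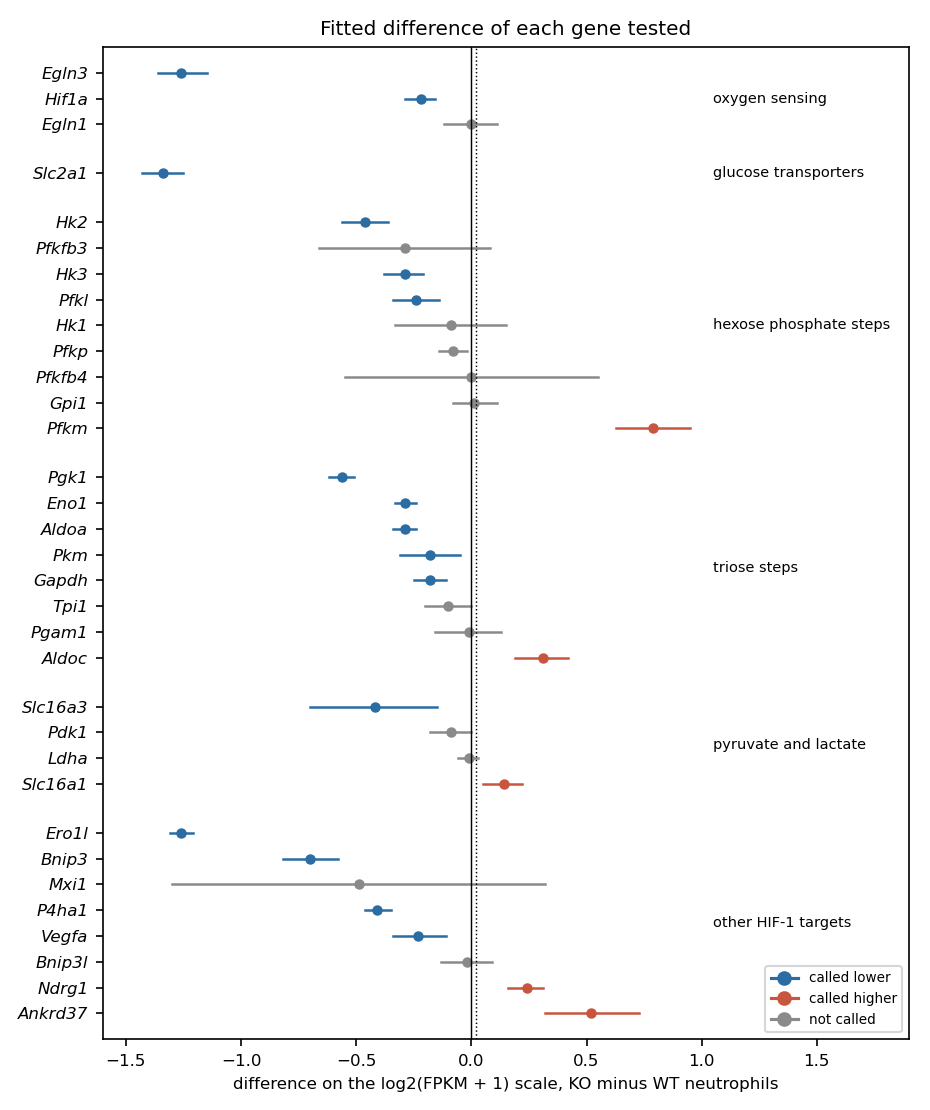
Fitted difference, KO minus WT neutrophils, on the log2(FPKM + 1) scale for each of the 33 genes tested, with 95% intervals from limma, grouped by role; the dotted line marks the median of all genes tested, 0.02. Blue marks the 16 genes called lower, from -1.34 for Slc2a1 to -0.18 for Pkm and Gapdh, red the 5 called higher, up to 0.79 for Pfkm, and grey the 12 not called.

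Ratios between related genes within a library are free of any scaling between libraries, apart from the effect of the pseudocount, and 12 pairs were compared. A ratio shows that the members of a pair changed unequally, not which of them changed. On the log2(FPKM + 0.1) scale, the ratio of Egln3 to Egln1 differed by -1.32, from 0.50 ± 0.10 (SD, n = 3) to -0.82 ± 0.12. That of Pfkm to Pfkl differed by 1.11, from -1.64 ± 0.10 to -0.53 ± 0.17, and that of Bnip3 to Bnip3l by -0.70, from 0.39 ± 0.06 to -0.31 ± 0.10. In the latter pair the order of abundance turned over, as the linear ratios were above 1 in the WT group (1.26, 1.31 and 1.36) and below 1 in the KO group (0.877, 0.768 and 0.784). Aldoc to Aldoa differed by 0.62, Slc16a3 to Slc16a1 by -0.57, Hk2 to Hk1 by -0.37 and Pfkp to Pfkl by 0.17. Each of these 7 ratios separated the groups, with an exact two-sided permutation p of 0.1, the smallest possible, and 0.15 after adjustment over the 12 pairs, so none could pass 0.05. Slc2a1 to Slc2a3 separated them too (-0.23, exact permutation p = 0.1), but its direction hung on the pseudocount. Hk3 to Hk1 (-0.20, exact p = 0.4) and Pfkfb3 to Pfkfb4 (-0.41, exact p = 0.6) overlapped between the groups. Ldha to Ldhb and P4ha2 to P4ha1 rest on a gene at or near 0 and have no readable ratio.

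**Figure D4:**
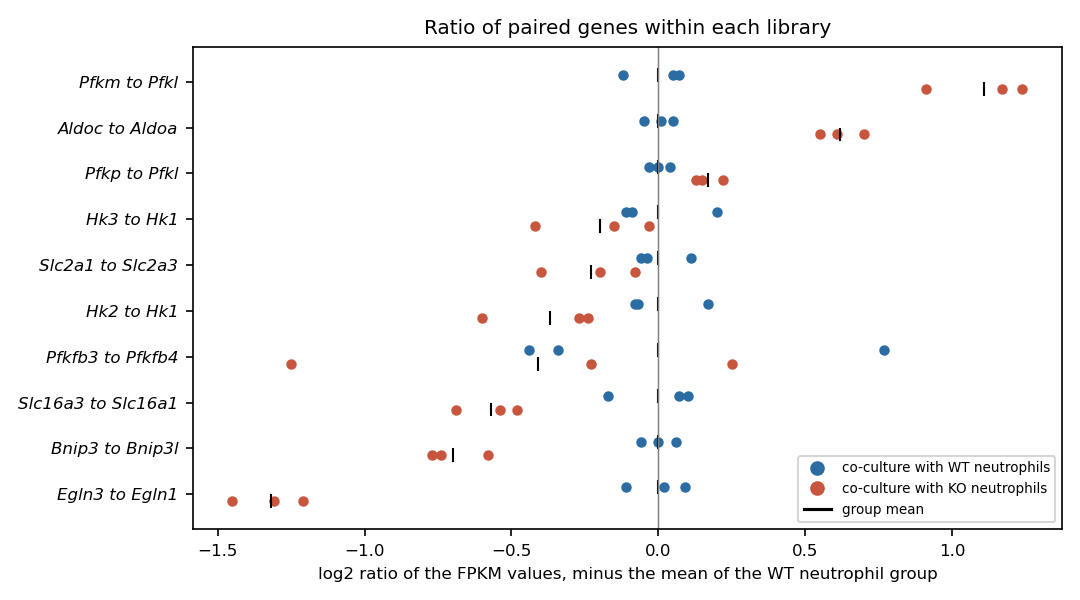
Log2 ratio of 10 pairs of related genes in each library, on the log2(FPKM + 0.1) scale and set to the mean of the WT neutrophil group, with blue points for WT and red points for KO neutrophils and black ticks for group means. The red points lie apart from the blue ones for Egln3 to Egln1 at -1.32 and for Pfkm to Pfkl at 1.11, and they mix for Pfkfb3 to Pfkfb4.

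Before their start sites the members shared a feature that the rule had not measured. Windows of 250 bases before the start sites were at hand for 34 of the 37 genes, all but Ndrg1, Bnip3l and Slc2a3, and 32 of the 34 (94.1%) held at least 1 ACGTG or GCGTG on either strand in some window, Tpi1 and Gpi1 being the exceptions. The share was 41.5% over all 27025 genes with a window and 63.5% over the 8028 of them that had been tested under the same symbol. Counted by window, it was 82.0% for the members, 38.6% for all genes and 57.5% for genes tested. ACGTG alone was found for 64.7% of the members, 18.5% of all genes and 26.2% of genes tested, and GCGTG for 67.6%, 30.9% and 52.0%. Since many members were listed as known HIF-1 targets, these shares describe the list and are no independent evidence. Among the members, ACGTG was held by 13 of the 16 called lower, 3 of the 4 called higher and 5 of the 11 not called, and GCGTG by 8 of the 16, all 4 and 8 of the 11 in the same order of calls. The same split was not made over all genes tested, so no link between a motif and a call can be drawn from it. The most matches in 1 window were the 5 of Bnip3, called lower, and of Ldha, not called, while Egln3, Hk3, Pfkl, Aldoa and Pkm, also called lower, had at most 1. Ankrd37 and Slc16a1, both called higher, had 4 each.

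**Figure D5:**
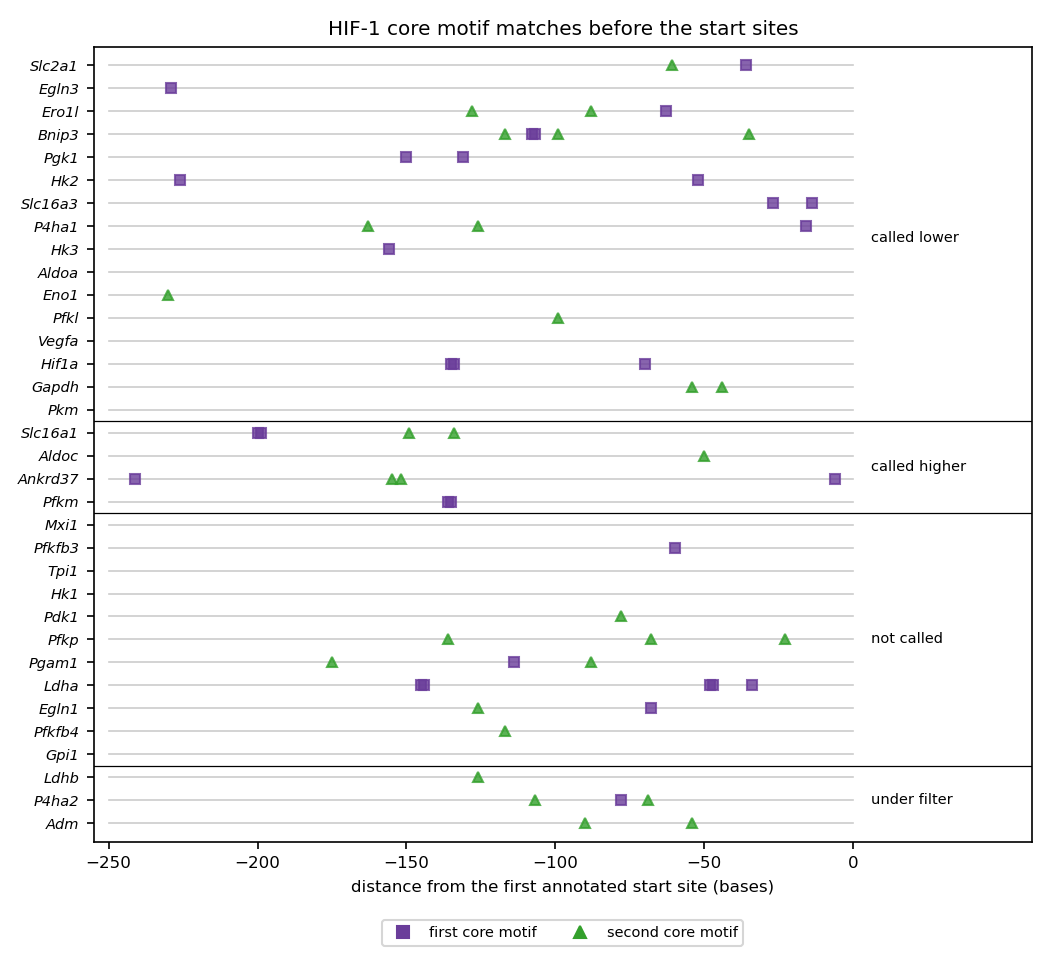
Position of each core match in the 250 bases before the first annotated start site, in bases from that site, for the 34 genes with a window, split by call; squares mark the ACGTG form and triangles the GCGTG form on either strand. Ldha and Bnip3 carry 5 matches each, and the windows of Aldoa, Vegfa and Pkm, all called lower, carry 0 before this first start site.

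Beyond the members, 30 other glycolysis genes were read from the same fit, of which 16 were tested, 6 rose and 5 fell, with a median of 0.00. The shares were 37.5% higher and 31.25% lower, against 24.5% and 18.8% of all genes tested. Eno3, the muscle enolase, rose most, from 14.9, 16.0 and 17.0 FPKM in the WT group to 48.1, 47.5 and 45.0 FPKM in the KO group (difference 1.50, SE 0.053, adjusted p = 5.24e-06). Its share of the enolase sum went from 2.95% ± 0.206 to 9.86% ± 0.396 while that sum went from 540.0 ± 2.37 to 476 ± 7.15 FPKM. With the near-identical copies of Eno1 added to the sum, an alternative chosen after seeing the data, the share went from 1.80% ± 0.128 to 6.08% ± 0.134, so its size is uncertain. Pgm1, a phosphoglucomutase, fell by 0.63 on the log2 scale (41.1 ± 0.495 to 26.1 ± 0.121 FPKM, adjusted p = 5.98e-06), and Slc2a6, which encodes the transporter GLUT6, fell by 0.50 (11.4 ± 0.489 to 7.79 ± 0.137 FPKM, adjusted p = 2.15e-04).

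The branches that lead away from glycolysis were counted in the same way, beside 24.5% called higher and 18.8% called lower over all genes tested. In the pentose phosphate pathway, which makes NADPH and ribose, 10 of 11 genes were tested, 5 rose and 1 fell. Prps2 rose by 0.53 (15.0 ± 0.762 to 22.2 ± 0.438 FPKM, adjusted p = 1.63e-04), Pgd by 0.45 (54.0 ± 0.116 to 74.1 ± 1.2 FPKM, adjusted p = 1.72e-05) and the rate-limiting G6pdx by 0.35 (66.9 ± 0.622 to 85.4 ± 1.14 FPKM, adjusted p = 4.59e-05). On the TPM scale 4 of these 10 genes were called higher and 2 lower. Of 16 genes of glycogen and hexose storage, 11 were tested, 5 rose (45.5%) and 2 fell (18.2%), with Pygb at 0.43 (adjusted p = 4.34e-04) and Phka2 at 0.39 (adjusted p = 0.00385). These 7 calls became 3 when genes of low FPKM were kept in the fit, 3 without WT replicate 1, and 4 without WT replicate 2, KO replicate 2 or KO replicate 3. Of 13 genes for the entry of pyruvate into mitochondria, 11 were tested, 3 rose (27.3%) and 1 fell (9.09%). These shares were near or under those over all genes tested. On the TPM scale 1 rose and 1 fell. The 4 calls became 2 with low FPKM genes kept in the fit, with the replicate block and without WT replicate 2 or KO replicate 3, and 1 without KO replicate 2. The largest were Pdhb at 0.26 (adjusted p = 0.00475), Mpc2 at 0.24 (adjusted p = 0.0292) and Pcx at -0.24 (adjusted p = 0.0286). The calls of Mpc2 and Pcx were each lost without any of 4 single libraries, with adjusted p up to 0.0846 and 0.0829, and with low FPKM genes kept in the fit (0.0759 and 0.0652). That of Mpc2 was also lost with the replicate block (0.073) and on the TPM scale (0.0535).

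All 49 genes of the respiratory complexes and ATP synthase were tested, of which 27 rose and 1, Atp5g2, fell, with a median of 0.16 beside -0.18 for the 33 glycolysis and hypoxia genes. The shares were 55.1% higher and 2.04% lower, against 24.5% and 18.8% of all genes tested. Ndufb3 rose by 0.86 (40.0 ± 1.55 to 73.6 ± 6.44 FPKM, adjusted p = 1.25e-04), Cox6b1 by 0.84 (84.0 ± 1.65 to 151 ± 4.22 FPKM, adjusted p = 4.43e-06) and Cox7b by 0.77 (52.2 ± 1.91 to 89.6 ± 1.88 FPKM, adjusted p = 1.07e-05). On the TPM scale 22 rose and 1 fell. The median longest transcript was 1232 bases for this list and 3289 bases for the members, and over all genes tested the median difference was 0.02 under 1 kb, 0.04 from 1 to 3 kb and 0.01 above 3 kb. No test of the difference between the lists was made.

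Of 18 regulators of the HIF pathway 16 were tested, 4 rose and 4 fell. That is 25.0% each way, near the 24.5% called higher and 18.8% called lower over all genes tested. Epas1, which encodes HIF-2 alpha, rose from 8.02, 8.18 and 8.08 FPKM in the WT group to 16.6, 15.1 and 15.1 FPKM in the KO group (difference 0.87, adjusted p = 2.86e-05), in the opposite direction to Hif1a. Cited2, which competes with HIF-1 alpha for its coactivators, was called at -0.77 (adjusted p = 0.033), but WT replicate 1 at 41.1 FPKM stood apart from the other WT values of 21.9 and 23.5 FPKM. Without that library the difference was -0.50 (adjusted p = 0.00184), and without any single KO library the call was lost (adjusted p from 0.0706 to 0.0882), as it was with low FPKM genes kept in the fit (adjusted p = 0.0873). Egln2, the third prolyl hydroxylase gene, rose by 0.32 (7.68 ± 0.146 to 9.83 ± 0.559 FPKM, adjusted p = 0.00283), so Egln1, Egln2 and Egln3 showed no shared direction.

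Among 35 further hypoxia-induced genes 28 were tested, and calls went both ways, with 9 higher and 12 lower and a median of -0.04. The shares were 32.1% higher and 42.9% lower, against 24.5% and 18.8% of all genes tested. Cxcr4, a chemokine receptor gene, rose from 9.97 ± 0.476 to 26.4 ± 1.49 FPKM (difference 1.32, adjusted p = 8.11e-06). Epo, the erythropoietin gene and a classical target of HIF-2, was listed at 0 in all 3 libraries in the WT group and at 1.84, 5.75 and 5.11 FPKM in the KO group, where 3 fragments would give up to 0.271 FPKM on its shortest transcript. It passed the filter only through the KO group, so its call, which is among the 9, rests on that and its p is not given. Hilpda, a lipid droplet gene that falls outside the naming rule and was chosen after its values were seen, went from 156, 162 and 168 FPKM to 69.9, 74.8 and 72.5 FPKM (difference -1.15, adjusted p = 3.44e-06).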

How the data were processed

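RNA-seq was measured in 6 libraries, 3 per neutrophil genotype. The submitters' processing notes name fastp 0.17.1, HISAT2 2.1.0, DESeq2 1.18.1 and R 3.4.3. The quantifier, genome build and annotation are not given in the sources used here, and the kit and sequencer named in the labels are not those named in the published methods. The authors deposited FPKM values for 55335 identifiers, 1 column per library, with no counts. Symbols and positions came from GENCODE M21 (GRCm38), which held 55154 identifiers (99.67%) and lacked 181, and promoters from RefSeq. The members and all lists were chosen with earlier results of these data known.

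From the FPKM values, log2(FPKM + 1) was fitted with limma 3.58.1 in R 4.3.3 (lmFit, eBayes with trend), KO minus WT, for the 11395 genes whose mean reached 1 FPKM. P-values were adjusted over these genes by Benjamini-Hochberg, with calls under 0.05. A difference on this scale understates the change of low genes. Errors are SD over 3 libraries, and 95% intervals come from the fit. Ratios of related genes used a pseudocount of 0.1 and an exact two-sided permutation test. For Aldoa, with a second identifier at 0.766 to 1.81 FPKM, the higher row was used. Near-identical copies were transcripts found by blastn with at least 90% identity over 300 bases. The fit was tested on simulated data. Between 25.9% and 27.6% of low values were whole fragments within 0.05, so counts could not be recovered and no count test was run.

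Every member was to be named, with each library's value for members called at 0.5 or more in size, for Hif1a and Gapdh, and for those under the filter, and in other lists up to 3 called genes with the largest change. Some genes that this rule names are not reported here. Alternatives were a pseudocount of 0.1, no filter, a mean of at least 5 FPKM, the TPM scale, a common sum without mitochondrial genes, median centring, quantile normalization, no trend, array weights, the replicate number as a block, and each library left out.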

Additional observations from a re-analysis of the deposited data

How the results depend on the processing

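Of the 21 members called, 18 kept their call and direction under each alternative that tested them, and the exceptions were Pkm, Slc16a3 and Slc16a1. Ankrd37 was not tested with a minimum mean of 5 FPKM. No called member changed sign in 335 comparisons, of which 16 lost the call, while uncalled members gained a call in 9 (Pfkp, Tpi1, Ldha, Pdk1 and Pfkfb3). With no filter, Slc2a3 was also called lower. The number of members called ranged from 18 without KO replicate 3 to 24 on the TPM scale. Same-numbered libraries did not deviate together (correlations -0.075, -0.052 and -0.005), so the numbers were not taken to pair the samples. With the replicate block, 19 members were called (15 lower, 4 higher), as were 4212 of all genes against 4930 without it. The median of the members was -0.23 on the TPM scale and -0.21 to -0.18 with a library left out. Genes called for the entry of pyruvate into mitochondria, 4 in all, numbered 2 with no filter, 2 on the TPM scale, 2 with the replicate block and 1 (without KO replicate 2) to 3 with a library left out. Those of glycogen and hexose storage, 7 in all, numbered 3 with no filter and 3 (without WT replicate 1) to 6 with a library left out. Only uncalled members changed sign. Gpi1 was at -0.037 and Pfkfb4 at -0.039 on the TPM scale, Pfkfb4 at -0.005 with array weights, Egln1 at 0.001 without mitochondrial genes and Pgam1 at 0.006 with quantile normalization. With a library left out, Egln1 ranged from -0.04 to 0.039, Pgam1 from -0.05 to 0.043, Bnip3l from -0.07 to 0.016, Gpi1 from -0.020 to 0.05, Pfkfb4 from -0.207 to 0.12, the log2 ratio of Pfkfb3 to Pfkfb4 from -0.74 to 0.01 and that of P4ha2 to P4ha1 from -0.03 to 0.17. The ratio of Slc2a1 to Slc2a3 was 0.03 without a pseudocount. The cause of these shifts was not tested. Summing the near-identical copies, an alternative chosen after seeing the data, moved Gapdh to -0.14. The count tests planned were not run, since fragments could not be recovered. Depth limits what can be said of Slc2a3, P4ha2, Ldhb and Adm.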
